A study of Mus musculus with 47 samples.

Results

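The genes described here are those that were higher in Bcl11b knockout T-cell precursors than in each of 3 kinds of normal precursor. Expression was compared as group means of log2(FPKM + 1), where FPKM counts fragments per transcript length and library size. A gene was taken when its mean in the knockout libraries was at least 5 FPKM and at least 1 log2 unit above the mean of Cre-treated controls, of normal DN2a cells and of normal DN2b cells. Symbols of the Gm and Rik type and 14 genes listed by name were left out. The rule held for 36 of the 17754 entries in the table. It used 19 of the 47 libraries, so differences between the groups of those 19 libraries chose the genes and are given as a description, with no test.

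Bcl11b is a zinc finger protein whose expression starts when T-cell precursors become committed. DN2a cells are CD4 and CD8 double-negative precursors that carry high Kit and CD25 and are not yet committed, and DN2b cells, with lower Kit, are the next stage, followed by DN3. Without Bcl11b, precursors are known to stall around the DN2 stage and to take up features of innate lymphoid cells.

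All fetal liver cultures started from mouse embryos at E13.5. In the rule's 7 knockout libraries, fetal liver cells of Bcl11b fl/fl mice received a Cre retrovirus and were grown on OP9-DL1 stroma, which displays the Notch ligand DL1, with the standard IL-7 amount. The 6 control libraries came from Bcl11b-intact cells titled B6 that received the same Cre virus and the same culture, and the 4 DN2a and 2 DN2b libraries came from normal fetal liver cells with no Cre virus. Of the DN2b libraries, replicate 1 is titled DN3. The rule's Cre-treated libraries were of days 9 to 12 and of a later title year than the DN2a and DN2b libraries. Both DN2b libraries were of day 8.5, and the DN2a libraries with a day given were of days 8.5 and 4.5. In the differences to DN2a and DN2b, genotype cannot be told apart from culture time, virus and title year. A further 7 knockout and 5 control libraries of Cre-treated fetal liver cells were not used by the rule and are called the held-out libraries. They differ from the rule's libraries in Notch ligand or IL-7: 1 knockout and 2 controls were grown on DL1 with reduced IL-7, 3 knockouts and 1 control on DL4 with reduced IL-7, and 3 knockouts and 2 controls on DL4 with standard IL-7. Held-out knockout cells were sorted as DN2a and held-out controls as DN2b, so the sort gate and the genotype cannot be told apart in the held-out comparison. Among the rule's knockout libraries, replicate 1 is titled DN2a, replicate 6 DN2b and the others DN2. The rule's controls are titled DN2b (replicates 1, 5 and 6) or DN2 (replicates 2, 3 and 4). Knockout cells came from Bcl11b fl/fl embryos and controls from C57BL/6 embryos, in either case with or without a ROSA26R-YFP reporter of Cre activity. The stromal cultures received Flt3L, IL-7 and SCF, and reduced IL-7 means a lower amount when the cultures were first fed. The tamoxifen-inducible lines carry Cre-ERT2 expressed in all tissues from ROSA26. Single libraries covered Lck-Cre deletion in the thymus, tamoxifen-induced deletion in sorted thymic DN3 cells and in bone marrow precursors, and knockout cells given an empty or a Bcl11b-coding vector. Nothing in the labels says that replicates of a group came from separate embryos, and title dates and days place several libraries in 1 culture sampled on different days, so p-values measure the spread between libraries, which may in part be technical.

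Bcl11b itself stood at 23.6 to 29.6 FPKM in the 7 held-out knockout libraries and at 16.9, 54.5 and 80.7 FPKM in the reduced-IL-7 controls and 39.9 and 62.1 FPKM in the standard-IL-7 controls. In the held-out fit described below, its difference of -0.94 log2 units was not called (SE 0.27, limma adjusted p = 0.0576). The library labelled control, DL1, reduced IL-7, replicate 1 had the lowest of these control values and lay below every held-out knockout library. Without that library the main count given below was unchanged at 31 genes. Bcl11b was at 36.4 FPKM in the Lck-Cre knockout against 105 in its control, and at 23.8 FPKM in the cultured DN3 knockout against 61.2 and 79.3 in its controls. Gene-level values include any exons that the deletion leaves in place. Cd3e, which encodes a CD3 chain of the T-cell receptor complex, was at 5.60 to 56.2 FPKM in the held-out knockouts and at 145, 154 and 156 and then 74.9 and 176 FPKM in the same controls, so the groups did not overlap. In these bulk libraries, fewer cells of a type and less RNA per cell cannot be told apart. Il2ra, which encodes the sort marker CD25, ranged from 267 to 491 FPKM in held-out knockouts and from 220.1 to 391 FPKM in held-out controls. Sequencing depth is unknown, and the table's lowest value, 0.1 FPKM, is a floor that is read as not detected.

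Promoter sequence is shown for 3 of the genes: Tnni1 and Trpm1, which had the largest held-out differences, and Cpa3, which had the highest level. Each line gives the 250 bases before the first annotated start, 5′ to 3′ on the gene's strand, from RefSeq on GRCm38.p6. Capitals mark matches on either strand to 6 motifs. These were AGATAA for the GATA family of zinc finger proteins, TGTGGT for the Runx proteins, and CAGCTG or also CACCTG for the basic helix-loop-helix proteins that read E-boxes. Further motifs were CTTTGA for the TCF/LEF proteins, CCGGAA for the ETS family and GTGGGAA for the Notch effector CSL.
Tnni1 (chr1:135799171-135799420, plus strand): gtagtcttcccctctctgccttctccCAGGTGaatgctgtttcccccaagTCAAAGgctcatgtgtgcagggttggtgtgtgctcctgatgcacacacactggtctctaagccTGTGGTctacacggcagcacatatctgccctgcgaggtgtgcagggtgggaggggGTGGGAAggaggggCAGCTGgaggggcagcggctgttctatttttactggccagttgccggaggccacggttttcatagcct
Trpm1 (chr7:64153585-64153834, plus strand): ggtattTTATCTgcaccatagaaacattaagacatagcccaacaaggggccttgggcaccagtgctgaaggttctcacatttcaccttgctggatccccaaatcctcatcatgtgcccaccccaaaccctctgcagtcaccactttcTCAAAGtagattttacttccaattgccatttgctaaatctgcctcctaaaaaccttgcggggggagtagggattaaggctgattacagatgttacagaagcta
Cpa3 (chr3:20242182-20242431, minus strand): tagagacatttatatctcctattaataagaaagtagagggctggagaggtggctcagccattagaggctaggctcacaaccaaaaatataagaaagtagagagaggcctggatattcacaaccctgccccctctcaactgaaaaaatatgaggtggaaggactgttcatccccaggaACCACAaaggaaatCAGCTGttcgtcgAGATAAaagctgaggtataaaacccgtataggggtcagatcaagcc
The Tnni1 window held a pair of E-box matches and a match each to the TCF/LEF, Runx and CSL motifs. The Trpm1 window held a GATA and a TCF/LEF match, and the Cpa3 window held a Runx, an E-box and a GATA match. Of the 36 genes, 29 were matched to a promoter in the RefSeq table, through 44 start sites. Runx matches were present in 25.0% of these 44 windows and in 14.0% of all 32851 windows of the same length, E-box matches in 38.6% and 27.7%, and TCF/LEF matches in 22.7% and 13.8%. GATA matches were present in 9.09% and 9.99%, ETS matches in 6.82% and 12.0%, and CSL matches in 6.82% and 5.42%. These shares describe letters in the windows and say nothing of binding.

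The values that chose the genes spanned a wide range. Knockout minus control ran from 1.06 to 5.13 log2 units with a median of 1.43, knockout minus DN2a from 1.01 to 4.17 with a median of 1.63, and knockout minus DN2b from 1.09 to 6.42 with a median of 2.14. The smallest of the 3 differences was that to control in 20 genes, to DN2a in 13 and to DN2b in 3. Just inside the threshold lay Cpa3 with a smallest difference of 1.01, Osbpl5 with 1.02, Lmo4 with 1.06, and Ifitm5 and BC064078 with 1.08. Just outside lay Spa17 with 0.99, Tcrg-V5 and Rab19 with 0.97, and Kcne3 and Txk with 0.95. Tceal3 was nearest to the level threshold, with a mean of 5.01 FPKM. Of the 36 genes, 34 are annotated as protein coding in GENCODE M21, BC064078 is a pseudogene and Srp54a has no entry by its identifier. Entries met the value thresholds in 44 cases before names were removed. Of the 8 removed, 3 were on the list of names (Dlk1, Il2rb and Fcer1g) and 5 were Gm or Rik symbols. Normal DN2a minus DN2b was 1 or more for 8 of the 36 genes and -1 or less for 1, with a median of 0.32, beside 3.63%, 7.24% and a median of 0.02 over the 8961 entries at 5 FPKM or more in the rule's knockout libraries.

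**Figure D1:**
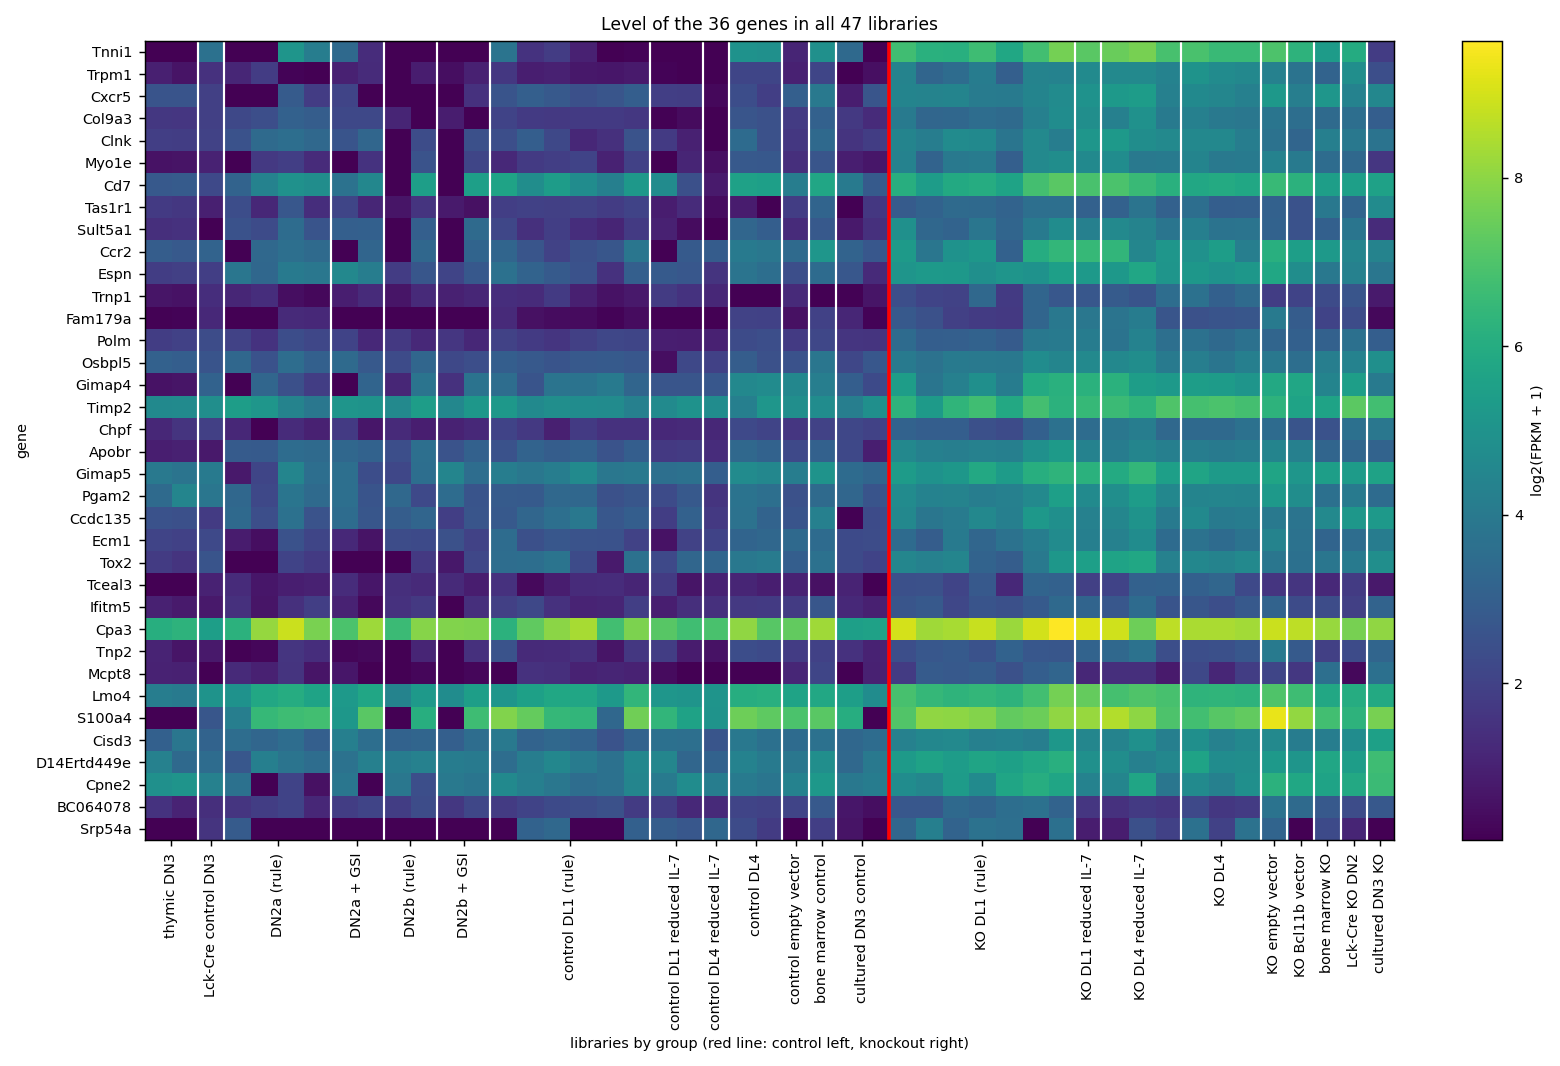
Level of each of the 36 genes (rows, ordered by held-out difference) in each of the 47 libraries (columns, by group), as log2(FPKM + 1) in colour, with control libraries left of the red line and knockout libraries right of it. Tnni1 reads 93.9 to 205 FPKM in the held-out knockout libraries and 0.1 FPKM in both DN2b libraries, while Srp54a and BC064078 at the foot have overlapping control and knockout values.

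In the held-out libraries 31 of the 36 genes were higher in knockout than in control and none was lower, by limma with stroma and IL-7 as covariates and an adjusted p under 0.05. Of all 12710 genes tested, 5.03% were called higher and 2.48% lower, and 7.51% either way. With quantile normalization 29 of the 36 were called, and the split over all genes moved from 639 higher and 315 lower to 533 and 447. The median difference of the 36 genes was 1.92 log2 units, beside 0.08 over all genes tested. With no filter on low values 28 of the 36 were called higher, beside 3.26% of 17754 entries, and the calls of Ccr2, Cd7 and Ecm1 were lost. All 36 passed the filter, 6 of them with fewer than 3 control libraries at 1 FPKM. Tnni1, Trpm1, Col9a3, Tas1r1 and Mcpt8 are among these 6, and each was also called higher with no filter. The filter asked for 1 FPKM in at least 5 libraries, as many as there were controls. Any gene with a control below 1 FPKM thus passed only with knockout libraries counted, where such genes are high. Its call leans on the filter. Besides the 6, this holds at least for Myo1e, Sult5a1, Clnk, Ccr2, Cxcr5 and Cd7. With no filter the calls of Myo1e, Sult5a1, Clnk and Cxcr5 were kept. The 5 not called were Tnp2, S100a4, Cpne2, BC064078 and Srp54a. When the 4 knockout and control pairs of equal title date, stroma and IL-7 were fitted with the pair as a replicate block, 3 of the 36 genes were called higher (Trpm1, Timp2 and Tas1r1), beside 0.0888% of 12385 genes. That fit uses 8 of the 12 libraries, and the same 8 without the block gave 16 genes. The difference was positive in all 4 pairs for 33 of the 36 genes, in 3 pairs for S100a4 and in 1 pair each for Srp54a and BC064078. Of all 12710 genes tested, 12.9% were higher in all 4 pairs.

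Some libraries carried more of this count than others. Without the control library of DL4 with reduced IL-7 the count was 18 genes, with 363 called in the whole table in place of 954, and without the knockout library of DL1 with reduced IL-7 it was 20, with 400 in the whole table. Without DL4 standard-IL-7 control replicate 2 the whole table gave 612. Reduced-IL-7 libraries alone gave 30 genes higher and 1 lower (Srp54a), beside 2.61%, and standard-IL-7 libraries alone gave 16, beside 1.31%. Per the labels, reduced IL-7 was given up for its effect on cell recovery and RNA quality. Knockout and control libraries of that condition both enter the main count, and the part of RNA quality in it was not tested. Libraries with titles of the earlier year alone (3 knockout and 3 control) gave 29 genes, beside 2.86% of all genes called higher, and libraries of the later year alone (4 and 2) gave 18, also beside 2.86%. The 6 knockout and 3 control libraries on DL4 gave 21 genes, beside 2.22%. Whether the gate, the line of mice or the culture contributed was not tested.

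**Figure D2:**
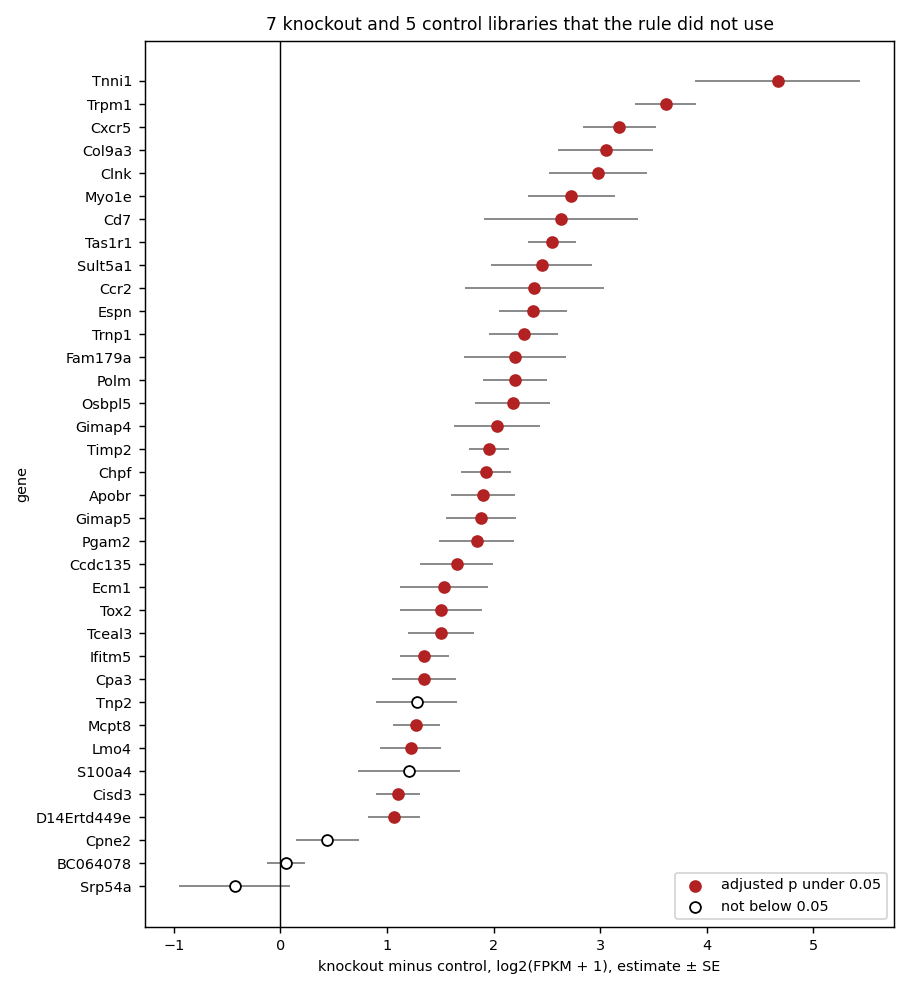
Knockout minus control in the held-out libraries, in log2(FPKM + 1), for each of the 36 genes, with the limma estimate as a point and its SE as a bar (7 knockout and 5 control libraries). Filled points have an adjusted p under 0.05. Tnni1 has the largest estimate, 4.67, and Srp54a the lowest, -0.43.

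Tnni1 had the largest difference of the 36 genes. It encodes the slow skeletal muscle isoform of troponin I, an inhibitory subunit of the thin filament. Tnni1 was listed at 0.1, 0.1 and 0.1 FPKM in the 3 reduced-IL-7 controls, at 30.3 and 28.9 FPKM in the standard-IL-7 controls and between 93.9 and 205 FPKM with a median of 118 in the 7 knockouts. All knockout libraries thus lay above all controls, and the difference was 4.67 log2 units (SE 0.77, limma adjusted p = 0.00356). Among the normal libraries used by the rule, the highest Tnni1 values were in 2 of the DN2a samples, which read 0.1, 0.1, 33.4 and 17.0 FPKM, and stood at the floor in both DN2b samples. Myo1e encodes a single-headed class I myosin that links membrane to actin. It was at 0.1, 1.19 and 0.425 FPKM in the reduced-IL-7 controls, 5.83 and 5.79 in the standard ones and between 14.6 and 26.2 FPKM with a median of 15.6 in the knockouts. Its difference was 2.73 (SE 0.41, limma adjusted p = 0.002), again with no overlap. Espn, which encodes the actin-bundling protein espin of hair cell stereocilia, read 6.04, 5.54 and 1.93 FPKM in reduced-IL-7 controls, 12.8 and 10.97 FPKM in standard-IL-7 controls and between 30.8 and 53.3 FPKM with a median of 35.2 in the knockouts. The step was 2.37 log2 units and the groups did not overlap. Pgam2, the muscle form of phosphoglycerate mutase, differed by 1.84. Its knockout libraries, at 20.2 to 40.4 FPKM, lay above the controls but not above the highest thymic DN3 library, at 21.2 FPKM.

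Receptors and channels formed another group. Trpm1 encodes a cation channel known from retinal bipolar cells and melanocytes. Control values were 0.177, 0.1 and 0.1 FPKM with reduced IL-7 and 3.37 and 3.34 with standard IL-7, and the 7 knockouts lay between 19.6 and 31.3 FPKM with a median of 23.6. The difference was 3.61 (SE 0.29, limma adjusted p = 0.000135), and it also passed with the pair as a block, at an adjusted p of 0.038 in limma. The lowest knockout library was at 19.6 FPKM, while the highest of the 20 normal libraries (held-out and rule controls, DN2a, DN2b and thymic DN3) was at 3.37. Tas1r1, a subunit of the umami taste receptor, read 0.842, 1.48 and 0.364 FPKM in reduced-IL-7 controls, 0.83 and 0.128 FPKM in standard-IL-7 controls and between 6.80 and 12.8 FPKM with a median of 7.45 in the knockouts. It differed by 2.55 (SE 0.23, limma adjusted p = 0.000281; 0.038 with the block).

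The set holds 2 chemokine receptors. Cxcr5, the receptor for CXCL13 that guides lymphocytes to follicles, was at 2.75, 2.64 and 0.258 FPKM in reduced-IL-7 controls, at 4.22 and 2.74 in standard ones and between 18.1 and 40.3 FPKM with a median of 24.1 in knockouts. The difference was 3.18 (SE 0.34, limma adjusted p = 0.000394), and no knockout library overlapped a control. Ccr2, the CCL2 receptor of monocytes, read 0.1, 6.17 and 6.54 FPKM in reduced-IL-7 controls and 15.3 and 13.8 FPKM in standard ones. Its knockout values were spread between 17.2 and 89.9 FPKM with a median of 33.5, and the difference of 2.38 had an SE of 0.65 and a limma adjusted p of 0.0451. The lowest knockout value was only just above the highest control. With no filter on low values the limma adjusted p for Ccr2 was 0.0694, and the gene was called in 7 of 25 alternative settings, with differences from 0.89 to 3.77.

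Genes of lymphocyte signalling included Clnk and Cd7. Clnk encodes an adaptor of the SLP-76 family found in mast cells and cytokine-stimulated lymphocytes. It stood at 2.38, 1.01 and 0.1 FPKM in reduced-IL-7 controls, 9.85 and 4.61 FPKM in standard-IL-7 controls and between 17.0 and 36.2 FPKM with a median of 23.4 in the knockouts, a difference of 2.98 (SE 0.46, limma adjusted p = 0.00222) with no overlap. Cd7, an immunoglobulin-family surface protein of early T and NK cells, read 25.0, 4.42 and 0.789 FPKM in the reduced-IL-7 controls and 46.8 and 44.1 FPKM in the standard ones. Knockouts were between 54.1 and 121 FPKM with a median of 70.6, all above the highest control, with an SE of 0.72 around the difference of 2.63 (limma adjusted p = 0.0451). With no filter the limma adjusted p for Cd7 was 0.0696, and it was called in 8 of 25 alternative settings, with differences from 0.32 to 4.63. Sult5a1, a member of the cytosolic sulfotransferase family, was at 1.04, 0.385 and 0.1 FPKM in reduced-IL-7 controls, 8.67 and 6.94 FPKM in standard-IL-7 controls and between 12.5 and 23.5 FPKM with a median of 17.9 in the knockouts. The difference was 2.45 (SE 0.47, limma adjusted p = 0.00831). Apobr, a receptor that binds apolipoprotein B48, differed by 1.90.

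The GTPase genes Gimap4 and Gimap5 belong to a cluster of immunity-associated GTPases that affect lymphocyte survival. Gimap5 was at 11.2, 11.8 and 6.92 FPKM in the reduced-IL-7 controls, 25.2 and 22.0 in the standard ones and between 38.6 and 85.3 FPKM with a median of 50.8 in the knockouts, with a difference of 1.88. Gimap4 was at 5.30, 5.27 and 5.55 FPKM in reduced-IL-7 controls, 22.5 and 25.2 FPKM in standard-IL-7 controls and between 32.6 and 72.6 FPKM with a median of 41.7 in the knockouts, with a difference of 2.03. Neither gene's knockout libraries overlapped the controls. Of the other Gimap genes in the table, 6 were tested and 2 were called higher, Gimap8 by 2.10 and Gimap3 by 1.13. Gimap6 differed by 1.25 (adjusted p = 0.058 by limma), Gimap7 by 0.96, Gimap9 by 0.76 and Gimap1 by 0.17, none of which passed. Reads of near-identical family members, and of the entry Gm28053 whose exons overlap Gimap5, may have been shared between genes.

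Matrix and secreted proteins were a further group. Col9a3, a chain of the cartilage collagen type IX, stood at 0.155, 0.326 and 0.1 FPKM in reduced-IL-7 controls, 5.29 and 4.56 FPKM in standard-IL-7 controls and between 14.0 and 29.3 FPKM with a median of 18.2 in the knockouts. Its difference was 3.05 (SE 0.45, limma adjusted p = 0.00182). Timp2, an inhibitor of matrix metalloproteases, read 24.9, 30.4 and 25.7 FPKM in reduced-IL-7 controls, 18.0 and 34.3 FPKM in standard-IL-7 controls and between 77.6 and 129.5 FPKM with a median of 109.6 in the knockouts. Both groups were tight, and the difference was 1.96 (SE 0.19, limma adjusted p = 0.000281; 0.038 with the block). Chpf, which helps polymerise chondroitin, differed by 1.93 and Ecm1, a secreted glycoprotein, by 1.53, both called by limma at an adjusted p under 0.05. Ecm1 was at an adjusted p of 0.0657 by limma with no filter and was called in 12 of 25 alternative settings, with differences from 0.34 to 2.71. S100a4 encodes a calcium-binding protein that is abundant in motile cells. It was at 81.6, 47.2 and 31.5 FPKM in reduced-IL-7 controls and 186 and 153 FPKM in standard ones, and between 106 and 368 FPKM with a median of 161 in the knockouts. These groups overlapped and the difference of 1.21 was not called (SE 0.48, limma adjusted p = 0.149). With the libraries of the later title year alone the difference was -0.35, and with standard IL-7 alone -0.32. OP9 stromal cells share these cultures. Of 9 stromal markers tested, 0 were called in either direction, and the sum of the 13 in the table ranged from 40.0 to 133 FPKM in held-out knockouts and from 26.4 to 140.5 FPKM in held-out controls. The part of stromal RNA in these values was not tested.

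Cpa3 and Mcpt8, proteases of mast cells and basophils, were both called higher. Cpa3, mast cell carboxypeptidase A, had the highest level of the 36 genes. It read 142, 105 and 117 FPKM in the reduced-IL-7 controls, 267 and 140.5 in the standard ones and between 186 and 564 FPKM with a median of 342 in the knockouts. Of the 7 knockout libraries 6 lay above the highest control, and the difference was 1.35 (SE 0.30, limma adjusted p = 0.0159). Cpa3 was called in 16 of 25 alternative settings, with differences from 0.78 to 1.83. Normal DN2a cells also carried Cpa3, at 75.0, 278, 469 and 212 FPKM. Mcpt8 was at the floor in 4 of the 5 controls and at 0.338 in the other, and between 0.753 and 3.63 FPKM with a median of 1.66 in the knockouts, a difference of 1.27. The 7 other mast cell and basophil markers in the table summed to 1.67 to 5.12 FPKM in held-out knockouts and 2.71 to 4.02 in held-out controls. Of 3 markers of that list tested, the 2 called were Cpa3 and Mcpt8 themselves.

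Several nuclear proteins were in the set. Lmo4, a LIM-only transcriptional cofactor, was at 33.7, 32.3 and 31.9 FPKM in reduced-IL-7 controls, 66.0 and 68.3 in standard ones and between 77.2 and 165 FPKM with a median of 114 in knockouts. All knockouts lay above all controls, and the difference was 1.22 (SE 0.28, limma adjusted p = 0.0208). Tox2, an HMG-box factor related to Tox, differed by 1.51. Polm, the DNA polymerase mu of end joining and of immunoglobulin gene rearrangement, differed by 2.20. Trnp1, a nuclear regulator of neural progenitors, differed by 2.28, and Tceal3, of the TFIIS-like family, by 1.50. All 5 were called. Tnp2, a transition protein of sperm chromatin, ranged from 4.30 to 12.1 FPKM in knockouts and reached 4.19 in a control. It was not called (1.28, SE 0.38, limma adjusted p = 0.0626).

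The remaining genes have mixed roles. Osbpl5, an oxysterol-binding lipid transfer protein, differed by 2.18, Fam179a (now Togaram2) by 2.20, Ccdc135 (now Drc7, of the motile cilium) by 1.65 and Ifitm5, of the interferon-induced transmembrane family, by 1.35. Cisd3, an iron-sulfur protein of mitochondria, was at 11.6, 11.2 and 5.25 FPKM in reduced-IL-7 controls, 14.4 and 11.6 FPKM in standard-IL-7 controls and between 17.9 and 28.5 FPKM with a median of 21.3 in knockouts, a difference of 1.10 with no overlap. D14Ertd449e (now Tmem254c) has near-identical copies and read 21.2, 8.58 and 7.70 FPKM in reduced-IL-7 controls, 19.3 and 15.5 FPKM in standard-IL-7 controls and between 18.4 and 48.8 FPKM with a median of 26.4 in knockouts. It was called at 1.07, with overlap between the groups. Cpne2, a calcium-dependent membrane-binding copine, stood at 15.6, 26.1 and 16.8 FPKM in reduced-IL-7 controls, 15.6 and 13.3 FPKM in standard-IL-7 controls and between 13.6 and 51.6 FPKM with a median of 21.0 in knockouts, and its difference of 0.44 was not called. BC064078 was not called (0.05, SE 0.18, limma adjusted p = 0.882), with 2.66, 1.36 and 1.41 FPKM in reduced-IL-7 controls, 3.26 and 3.07 FPKM in standard-IL-7 controls and between 1.84 and 3.73 FPKM with a median of 2.18 in knockouts. Srp54a encodes a signal recognition particle subunit and has near-identical copies, so its level is uncertain. It was at 6.65, 5.50 and 8.87 FPKM in reduced-IL-7 controls, 3.88 and 2.45 FPKM in standard-IL-7 controls and between 0.881 and 12.0 FPKM with a median of 2.88 in knockouts. With a difference of -0.43, it did not repeat the pattern for which it was chosen.

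Complete separation was also frequent. Every held-out knockout library exceeded every held-out control for 30 of the 36 genes, beside 4.97% of the 8961 entries at 5 FPKM or more in the rule's knockout libraries. It exceeded every thymic DN3 library for 30 genes, beside 10.9%. Across all 20 normal libraries, 25 of the 36 genes had all 7 held-out knockouts above all of them, beside 0.960%. The other normal groups in that total were chosen low by the rule, so only the held-out controls and thymic DN3 libraries are independent of it. Mcpt8, Pgam2, D14Ertd449e, Srp54a, Cpa3, Tnp2, S100a4, Cpne2, Ecm1, BC064078 and Lmo4 were the 11 exceptions.

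Thymic DN3 cells, the stage after DN2b, gave a comparison with normal cells from the animal: 2 undeleted libraries and 1 Lck-Cre control. Against these, 32 of the 36 genes were higher in the 7 held-out knockouts and none was lower by limma, with a median difference of 2.24 log2 units. Of 13509 genes tested, 11.8% were called higher and 31.4% either way, with a median of -0.13. Leaving out any 1 library gave 31 or 32 genes. The filter asked for 1 FPKM in at least 3 libraries, which the 7 knockouts alone can supply. Calls of genes near the floor in DN3 cells therefore lean on it. With no filter 32 of the 36 genes were called higher. Cd7, for example, stood at 5.95 and 6.24 FPKM in undeleted DN3 cells and 3.71 FPKM in the Lck-Cre control, against 54.1 to 121 in the knockouts. Culture, stage and genotype cannot be told apart in this comparison. Of 9 stromal markers tested 7 were also higher, and the 13 in the table summed to 40.0 to 133 FPKM in the knockouts and 22.1 to 27.2 in the DN3 libraries, with Dcn at the floor in all 7 knockouts. Their part in the result was not tested.

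Deletion in the thymus with Lck-Cre, a Cre driven by a T-lineage promoter, was sampled by 1 knockout library, sorted as DN2, and 1 control library, sorted as DN3. Differences between single libraries carry no replicate check. In this pair 31 of the 36 genes were 1 log2 unit or more higher and none was lower by as much, beside 4.74% of the 8961 entries higher and 2.31% lower. The median was 1.66. Tnni1 read 62.7 against 11.8 FPKM, Trpm1 27.6 against 1.82 and Timp2 151 against 27.7. Mcpt8, Pgam2, Srp54a, Tceal3 and BC064078 were the 5 below 1 unit. The pair shares no culture with the fetal liver libraries, but its sort stage again differs with genotype, and so does its title year. Stromal markers summed to 30.4 FPKM in this knockout library, with Thbs1 and Dcn at the floor.

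Deletion after the normal onset of Bcl11b was sampled in sorted thymic DN3 cells, which carried a tamoxifen-activated Cre, were treated with 4-OH tamoxifen at 100 nM and were grown on DL4 for 4 days. Knockout and control were sorted from DN3 cells alike, so the starting stage was matched. By title they came from different lines of mice, so line and deletion cannot be told apart. In this pair 29 of the 36 genes were 1 unit or more higher and none lower by as much, beside 8.73% and 4.0% of the 8961 entries, and the median was 1.90. S100a4 was at 204 FPKM in the knockout and was listed at the floor in the day 4 control. A day 3 control of the same control line, of an earlier title year, had 64.5 FPKM. Tas1r1 read 24.9 FPKM in the knockout, Cxcr5 21.9 and Cpa3 262. In the day 3 and day 4 controls these genes were at 0.1 and 2.19, at 0.86 and 5.27 and at 43.7 and 45.8 FPKM. Tnni1 was at 2.52 FPKM in the knockout and at 9.43 and 0.1 FPKM in the controls, so the order depended on which control was used. For 31 genes the knockout exceeded both controls, beside 46.1% of the 8961 entries, and Tnni1, Sult5a1, Fam179a, Srp54a and Tceal3 were the exceptions. For 29 genes it exceeded all 5 thymic DN3 libraries, cultured or not, beside 21.7%. In the control line, day 4 control against undeleted DN3 gave 1 gene higher by 1 unit (Gimap4, beside 2.81%) and 1 lower (Pgam2, beside 3.47%). Stromal markers summed to 104 FPKM in the knockout and 45.5 to 83.6 in the cultured controls, and their part was not tested.

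Bone marrow precursors of the tamoxifen line gave 4 genes higher by 1 unit (Trnp1, Mcpt8, Cxcr5 and Trpm1), beside 0.960% of entries, and a median of 0.33. In this pair the library labelled knockout had Bcl11b at 45.0 FPKM and the control at 44.9, so the label is not borne out by the level of the gene. Control levels were high for several genes, such as Tnni1 at 29.2 FPKM and Cpa3 at 305 FPKM.

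Vector libraries addressed what re-expression of Bcl11b does. They were collected 36 hours after a later transduction, at day 12 on DL1, with 1 library each, and both knockout and control titles give DN2b. With the empty vector, 32 of the 36 genes were 1 unit or more higher in knockout than in control, and none lower by as much, beside 4.75% and 1.47% of the 8961 entries, with a median of 1.74. The titles give this pair the date, day, stroma and stage of rule control replicate 5 and knockout replicate 6, so it is not independent of the values that chose the genes, and its count is a description. With the vector that encodes the exon 1-2-4 form of Bcl11b, Bcl11b stood at 105 FPKM against 24.7 with the empty vector. Of the 36 genes, 34 were then lower than with the empty vector, while 51.3% of the 8961 entries were higher, with a median of 0.01. The fall was modest, with a median of -0.48, and reached 1 unit for 6 genes (Srp54a, Tnp2, S100a4, Fam179a, Cxcr5 and Espn), beside 0.670% of entries. S100a4 read 626 FPKM with the empty and 274 FPKM with the Bcl11b vector, Cxcr5 36.0 and 17.1, and Tnni1 126 and 75.4. Control cells with the empty vector had 123, 7.05 and 1.16 FPKM of the same 3 genes. Knockout cells given Bcl11b were 1 unit or more above the empty-vector control for 23 genes, beside 3.37%, and below by as much for 0, beside 0.904%. The empty-vector knockout library enters both comparisons, so they are not independent.

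**Figure D3:**
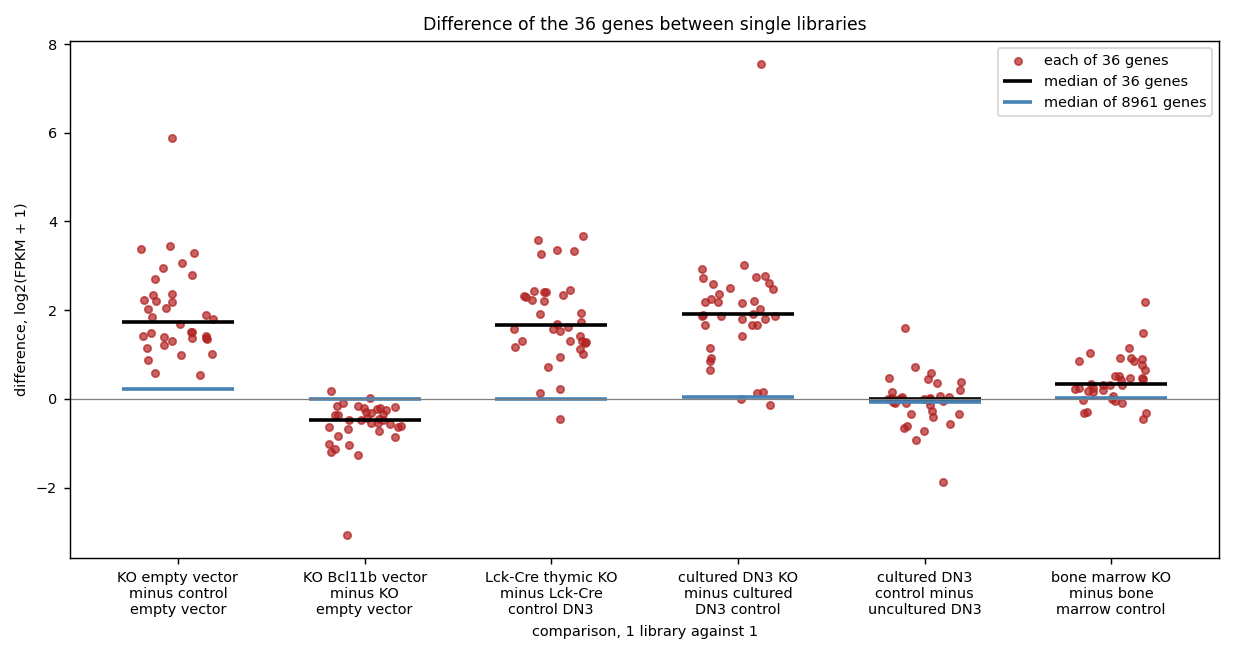
Difference of each of the 36 genes (points) in 6 comparisons of 1 library against 1, in log2(FPKM + 1), with the median of the 36 genes in black and that of 8961 entries in blue. The medians of the 36 genes are 1.74, -0.48, 1.66, 1.90, 0.00 and 0.33 from left to right.

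The size of the knockout difference varied with the IL-7 amount across the held-out libraries. The interaction of knockout and IL-7 was called in 46 of 13862 genes by limma, 0.332%, and 44 were larger with reduced IL-7 (0.317%) and 2 smaller (0.0144%). Of the 36 genes, 11 were called, all larger with reduced IL-7: Tnni1 by 5.39, Sult5a1 by 3.04, Fam179a by 2.96, Col9a3 by 2.90, Clnk by 2.80, Gimap4 by 2.55, Myo1e by 2.50, Gimap5 by 1.95, Apobr by 1.90, Lmo4 by 1.85 and Trpm1 by 1.80. They make 30.6% of the 36 genes and 23.9% of the genes called. The median over the 36 was 1.81 and over all genes 0.05. Gimap4 was at 5.30, 5.27 and 5.55 FPKM in the 3 reduced-IL-7 controls and 22.5 and 25.2 FPKM in the 2 standard ones, while its knockouts were at 71.8, 72.6, 41.7 and 36.3 FPKM with reduced and 42.2, 39.8 and 32.6 FPKM with standard IL-7. In the 2 knockout libraries of 1 date that differ in IL-7, 0 of the 36 genes moved by 1 unit either way, beside 0.513% of entries higher and 0.424% lower. All 3 reduced-IL-7 controls have titles of the earlier year and both standard ones of the later year, so IL-7 and year cannot be told apart in the controls. The labels state that reduced IL-7 was given up because it affected cell recovery and RNA quality. Leaving out single libraries gave between 1 and 14 of the 36 genes. The count was 1 without DL4 standard-IL-7 control replicate 1, 4 without replicate 2 and 3 without the DL4 reduced-IL-7 control. It was 6, 5 and 4 without DL4 standard-IL-7 knockout replicates 1, 2 and 3. With no filter on low values 7 genes were called, beside 0.152% of entries.

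**Figure D4:**
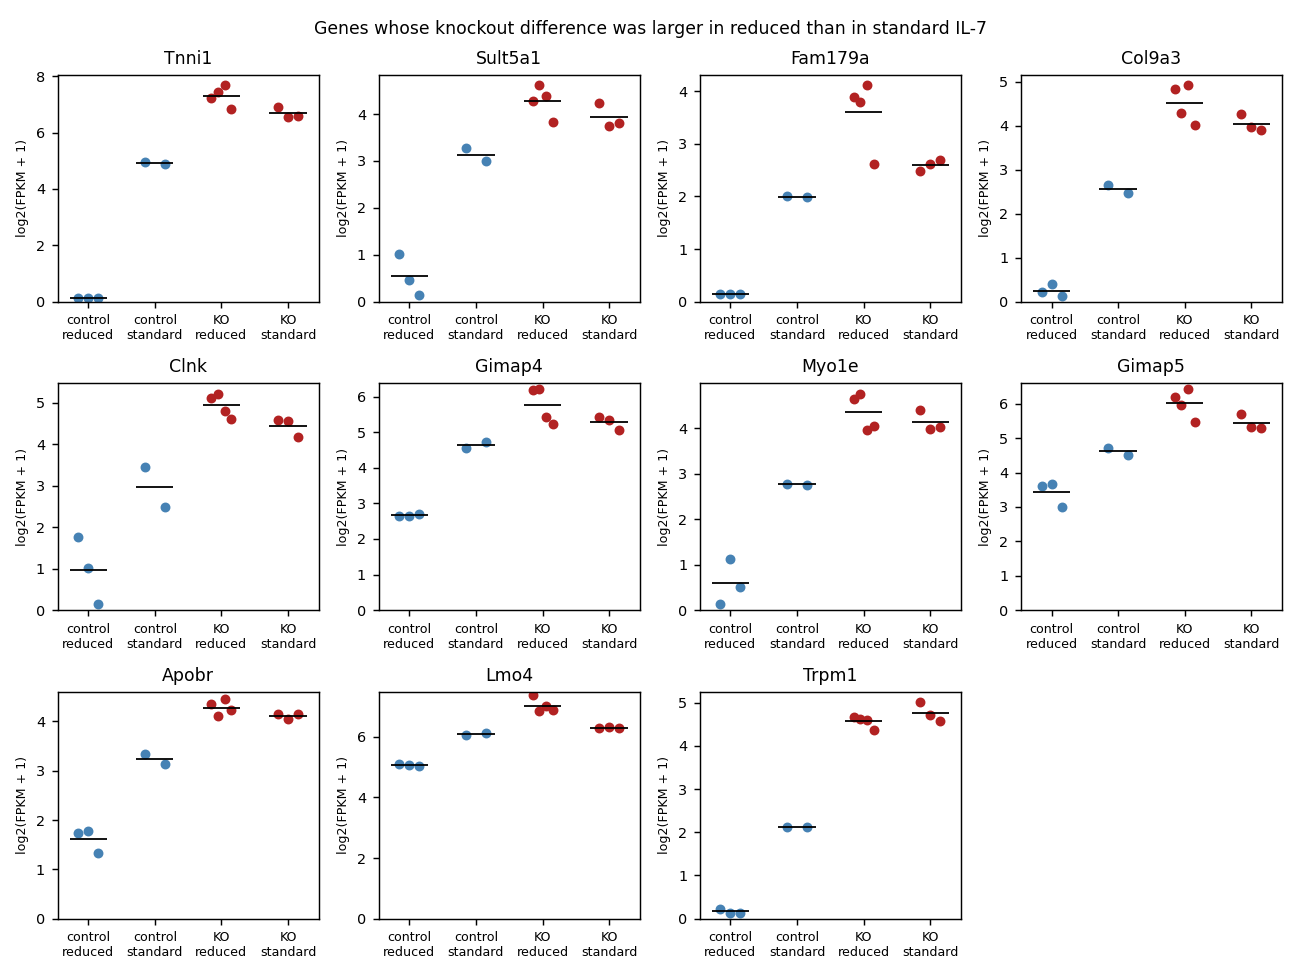
Level of the 11 genes with a called interaction of knockout and IL-7 in the held-out libraries, as log2(FPKM + 1), with a point for each library and a bar at the group mean (3 and 2 control, 4 and 3 knockout libraries). The 3 reduced-IL-7 controls read 0.1 FPKM for Tnni1 and the standard-IL-7 controls 30.3 and 28.9.

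Stroma was compared in 1 knockout and 1 control pair. In the date-matched reduced-IL-7 knockout libraries, DL4 against DL1 moved 0 of the 36 genes by 1 unit, beside 0.826% of entries higher and 0.279% lower. Among the date-matched controls 5 were lower on DL4 (Cd7, Cxcr5, Ccdc135, Pgam2 and Espn), beside 0.848%. The DL4 library of that control pair is the one whose removal gave the lowest held-out count. Stroma and that single library cannot be told apart here.

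Culture time was followed on DL1 with standard IL-7 in the libraries that the rule used. At day 12 against days 9 to 10, 0 genes of the whole table were called by limma in knockout (2177 had an unadjusted p under 0.05), in control (783) or for the interaction of day and genotype (312). In knockout cells 33 of the 36 differences were positive, with a median of 0.52 log2 units. Over all genes 58.8% were positive and the median was 0.08. In control cells 13 were positive, with a median of -0.15, beside 64.3% of all genes. The genes were chosen on these same libraries, so their counts are a description and support nothing about the 36 genes. Ccr2 had the largest change in knockout, 1.55. It read 38.5, 13.7, 30.7 and 7.54 FPKM in the 4 libraries of days 9 to 10 and 35.0, 63.0 and 84.9 FPKM at day 12, with overlap. Gimap4 read 42.0, 13.1, 18.2 and 16.6 and then 27.9, 60.9 and 70.9 FPKM in the same libraries, a difference of 1.25. In control cells the largest decrease was that of Tnni1, -1.93, with 12.95, 1.89 and 2.56 FPKM at days 9 to 10 and 1.03, 0.1 and 0.174 FPKM at day 12. Without knockout replicate 4 the call count over all genes was 27 in knockout, and without control replicate 4 it was 5 in control and 2 for the interaction, with 0 of the 36 genes among them in each case. Within single cultures, day 12 against day 9 gave 4 of the 36 genes higher by 1 unit and 1 lower in the July knockout culture, beside 4.41% and 1.92% of entries. It gave 10 higher and 1 lower in the August knockout culture, beside 5.43% and 2.98%, and 2 higher and 4 lower in the July control culture, beside 2.78% and 2.02%. With the replicate block the call count over all genes was 9 in control and 4 for the interaction.

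**Figure D5:**
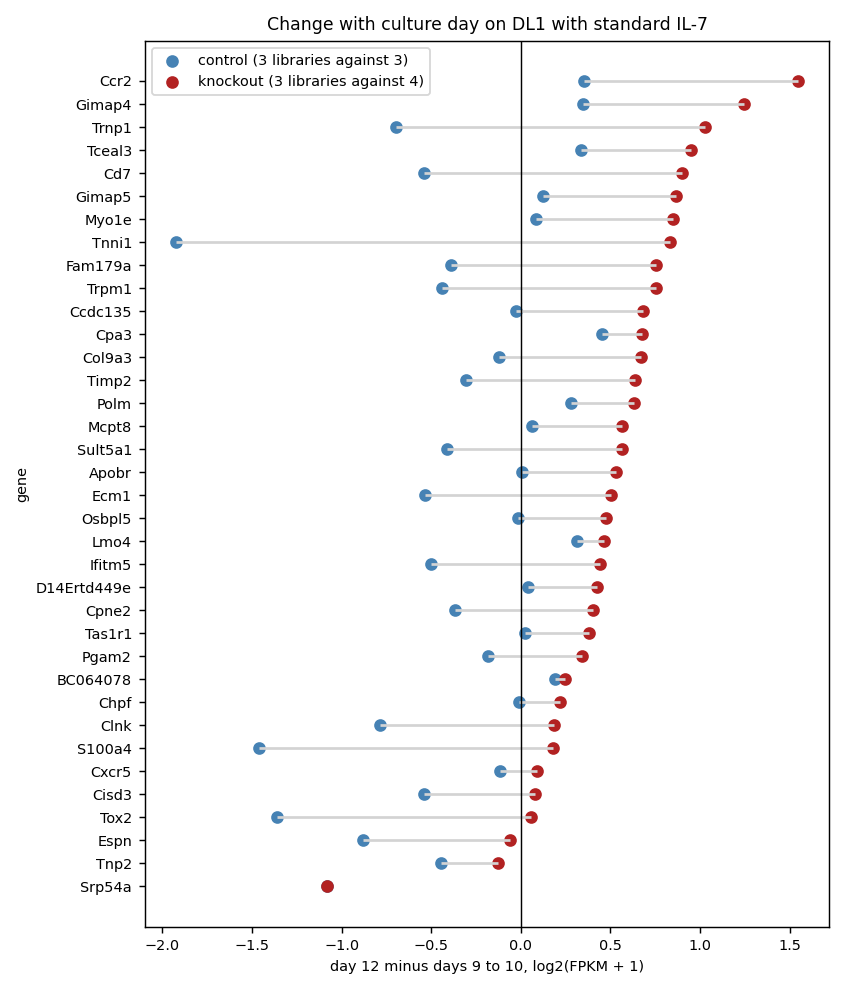
Difference of day 12 from days 9 to 10 in log2(FPKM + 1) for each of the 36 genes, in knockout (red, 3 libraries against 4) and control (blue, 3 against 3). No difference is called, and the medians are 0.52 in knockout and -0.15 in control. The rule chose the genes on these libraries.

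Notch signalling was inhibited in normal cells with a gamma-secretase inhibitor (GSI) at 1 µM for 12 hours, in 2 DN2a and 2 DN2b pairs. Tnni1 was at the floor in the untreated DN2a library of both pairs and at 9.52 and 1.52 FPKM with the inhibitor, but 2 further untreated DN2a libraries had 33.4 and 17.0 FPKM. By 1 unit, 4 and 1 of the 36 genes were higher in the DN2a pairs and 2 in each DN2b pair, beside 1.29%, 0.960%, 0.714% and 0.748% of entries. Lower by as much were 1, 0, 2 and 0, beside 0.346%, 0.870%, 0.681% and 0.580%. The untreated partners belong to the groups that the rule required to be low.

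Neighbouring genes were examined next to each of the 36. Of the nearest entries on either side in GENCODE M21 order, 54 were tested and are not among the 36, and 13 of them (24.1%) were called higher in the held-out libraries by limma, beside 5.03% of all genes, with a median of 0.46. These included Zfp518b beside Clnk (1.52), Cpne7 beside Sult5a1 (1.47), Gpr97 beside Ccdc135 (1.32), Tnfrsf23 beside Osbpl5 (1.28), Tnfrsf25 beside Espn (1.27) and Gimap3 beside Gimap5. Next to Cpne2, Nlrc5 was called lower, by -1.27. The libraries do not keep strand and 10 of the 36 genes overlap exons of another gene, so shared reads cannot be told apart from change of both genes where models touch. Col9a3 overlaps Tcfl5, Apobr overlaps Cln3 and Il27, and Cxcr5 overlaps Bcl9l, each on the opposite strand.

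Lists of marker genes, and the names that the rule drops, give the setting. Of 18 T-cell receptor and T-lineage genes 9 were called lower in held-out knockouts and 0 higher, with Cd3e at -2.41, Zap70 at -1.83 and Cd3d at -1.73, and a median of -0.90 beside 0.08 over all genes. Of the 14 genes that the rule drops by name 13 were called higher, including Zbtb16 at 3.33 and Id2 at 1.52, the innate lymphoid regulators, with a median of 2.48. These names were chosen with earlier results of these data known, and 3 of the 14 met the rule's value thresholds. Their count is therefore a description. Among 17 further genes of innate lymphoid or NK cells, 3 were higher (Klrc1, Il17rb and Il12rb2) with a median of 1.03, of 17 progenitor genes 6, of 8 megakaryocyte and erythroid genes 1 with 1 lower, of 5 B-lineage genes 2 with 2 lower, and of 9 myeloid genes 2, including Ccr2 and Csf2rb. Of 12 proliferation genes 0 were called either way. Progenitor genes summed to 209 to 294 FPKM in held-out knockouts and 154 to 238 in controls. Myeloid genes without Ccr2 summed to 34.3 to 73.6 and 41.0 to 49.5 FPKM. Their part in the differences of the 36 genes was not tested.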

How the data were processed

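Poly(A) RNA of 47 mouse libraries was sequenced. The authors deposited 1 table of FPKM values for 17754 entries, aligned to mm9 per the submitters' processing notes and adjusted between batches with ComBat per the table's name. No source used here gives the aligner, the quantification tool, or ComBat's batches and covariates, and batch adjustment can move group differences. Library construction per the labels' protocols keeps no strand. Column totals ran from 581205 to 1005744 FPKM, and 0.468 to 6.67% of values were at the floor of 0.1. Of the table's columns, 16 matched no sample and were not used.

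FPKM were taken to log2 with a pseudocount of 1. Comparisons used limma 3.58.1 in R 4.3.3 with a variance trend and Benjamini-Hochberg adjustment over all genes tested, which needed 1 FPKM in at least as many libraries as the smaller group. An adjusted p under 0.05 was called. Stroma and IL-7 were covariates in the held-out fit. On simulated data with 200 changed genes, changes of 2 log2 units were recovered in 95.5% for the held-out comparison and 61.5% for the interaction with IL-7. The changed genes had a mean log2 value above 2 and independent normal noise, with no floor and no shared cultures. Recovery for genes near the floor was not tested. Pairs of knockout and control share title date, stroma and IL-7. The correlations of their deviations from an additive fit of genotype, stroma and IL-7 were -0.536, -0.536, -0.284 and -0.434. Values in every library were given for the 10 largest and 5 smallest held-out differences and the 5 highest levels. The genes, the lists and the tests were chosen with earlier results of these data known. Alternatives were another pseudocount, no filter, quantile normalization, other covariates, the replicate block, subsets by year, stroma and IL-7, and leaving out each library.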

Additional observations from a re-analysis of the deposited data

Results flagged for a closer look

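Single libraries stood apart from the rest of their group in 5 of 72 gene and group combinations of the held-out libraries, by Dixon's gap test at the 95% level, which chance meets in about 1 in 20 groups. Espn was highest in DL4 reduced-IL-7 knockout replicate 2, at 53.3 FPKM. BC064078 was highest in DL4 standard-IL-7 knockout replicate 1, at 3.73 FPKM. Mcpt8 was above the floor in 1 control library, DL1 reduced-IL-7 replicate 1, at 0.338 FPKM. The DL4 reduced-IL-7 control was lowest for Cxcr5, at 0.258 FPKM, and for Cisd3, at 5.25 FPKM.

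The knockout difference was larger with reduced than with standard IL-7 by limma's interaction test for 11 of the 36 genes, beside 0.317% of all genes. IL-7 and title year cannot be told apart in the controls, and leaving out 1 library gave 1 to 14 of the 36. On the log2 scale the excess was 5.39 for Tnni1, 3.04 for Sult5a1, 2.96 for Fam179a, 2.90 for Col9a3, 2.80 for Clnk, 2.55 for Gimap4, 2.50 for Myo1e, 1.95 for Gimap5, 1.90 for Apobr, 1.85 for Lmo4 and 1.80 for Trpm1.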

How the results depend on the processing

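The 36-gene set itself ranged from 28 to 44 genes as each of the 19 libraries of the rule was left out. For the held-out comparison, leaving out 1 library gave 18 to 32 of the 36 genes called higher and 363 to 1067 genes in the whole table. The lowest counts came without the DL4 reduced-IL-7 control. With the replicate block over 4 pairs the counts were 3 and 22, and with the same 8 libraries without the block, an alternative chosen after seeing the data, 16 and 288. The whole table gave 1653 calls with no covariates, 475 with libraries of the earlier title year, 451 with DL4 libraries, 615 with those of the later year (18 of the 36 genes), 268 with standard IL-7 (16 of the 36) and 430 with reduced IL-7 (1 of the 36 lower). Trpm1, Timp2 and Tas1r1 were called in all 25 alternative settings. Other calls were less steady: Cpa3 and D14Ertd449e were called in 16 of the 25, Tox2 in 17, and Sult5a1, Fam179a, Gimap4 and Lmo4 in 18. The cause of these shifts was not tested, and the subsets hold fewer libraries.

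BC064078 changed sign to -0.036 with quantile normalization, -0.10 with the replicate block, -0.10 with those 8 libraries without it, -0.23 with the later year and -0.16 with standard IL-7. Srp54a became 0.79 with the later year, 0.075 with DL4 and 1.08 with standard IL-7. S100a4 became -0.35 with the later year and -0.32 with standard IL-7. As single libraries were left out, BC064078 ranged from -0.069, without the DL4 reduced-IL-7 control, to 0.12, and Srp54a from -0.83 to 0.075, without the DL1 reduced-IL-7 knockout. None of these 3 genes was called in the full held-out comparison.

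For the interaction of knockout and IL-7, leaving out 1 library gave 1 to 14 of the 36 genes larger with reduced IL-7, 0 to 1 smaller and 9 to 132 genes in all. With no filter it gave 7 and 28, and a pseudocount of 0.1 gave 1 smaller. Against thymic DN3 the ranges were 31 to 32 of the 36 genes and 2940 to 4313 in all. For culture day the whole table gave 0 to 27 genes in knockout, 0 to 5 in control and 0 to 2 for the interaction, and with the replicate block 9 in control and 4 for the interaction. Unknown depth limits what can be said of values at the floor.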
